A study of Mus musculus with 18 samples.

Results

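Antigen presentation genes of the major histocompatibility complex (MHC) were followed in ovary, pituitary and hypothalamus of mice that had or had not been transported. The genes listed were 10: the class I pathway genes H2-K1, H2-D1, B2m, Tap1, Psmb8 and Psmb9, and the class II genes H2-Ab1, H2-Aa, H2-Eb1 and Cd74. A gene was taken as measured when the platform annotation gave a transcript cluster (the probe group of an Affymetrix Mouse Gene 2.0 ST array) to it alone, and 8 of the 10 were, 5 of class I and 3 of class II, among 22180 genes in all. H2-D1 shared its cluster with H2-Q2, and Cd74 shared its cluster with the microRNA gene Mir5107, so neither is given as a gene here.

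The tested animals were female mice of a strain labelled BABL/c, from 10 littermate pairs, of which 1 of each pair went to the stress group and 1 to the control group. Stressed mice were transported over 1000 km and brought back, at an average of 50 km/h and for close to 10 h as the labels give it, while control mice were not transported, and both were kept in 1 laboratory otherwise. Both groups entered at 6 weeks of age and were superovulated at 9 weeks. In each group and tissue there were 3 arrays: the animal that released the most oocytes (high), the animal that released the fewest (low) and a mixture of the 8 others (pool). The 18 arrays thus came from 4 single mice and 2 pools, each sampled in 3 tissues, and the p-values below measure the spread between these samples.

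Class I molecules sit on nearly all nucleated cells and show peptides from the cell's own proteins to CD8 T cells. The immunoproteasome subunits cut the proteins, the TAP transporter carries the peptides into the endoplasmic reticulum, and B2m is the light chain that holds the H2-K1 heavy chain in shape. Class II molecules are carried mainly by dendritic cells, macrophages and B cells, which show peptides from ingested proteins to CD4 T cells. Interferon gamma is known to induce both pathways, through NLRC5 for class I and CIITA for class II. In ovary, pituitary and brain, class II genes are generally read from resident macrophages, dendritic cells and, in brain, microglia. In bulk tissue, fewer cells of a type and less RNA per cell cannot be told apart.

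The promoters of these genes are shown for the short control elements they hold. RefSeq (GRCm38.p6, the C57BL/6J reference and not the strain used) held a promoter for 7 of the 8 genes, and the 250 bases before the most upstream start are printed for 5 of them, 5′ to 3′ on the gene's strand. Capitals mark the motifs searched on both strands: the interferon-stimulated response element (ISRE, GAAA repeated with any NN between), the gamma-activated site (GAS) TTCNNNGAA, the Y box ATTGG, the cyclic AMP response element (CRE) TGACGTCA and the palindromic kappa B site (GGGGA, T and TCCCC in a row). The windows lie at chr17:34000348-34000597 on the minus strand (H2-K1), chr2:122147437-122147686 plus (B2m), chr17:34187306-34187555 plus (Tap1), chr17:34287824-34288073 minus (H2-Aa) and chr17:34305617-34305866 plus (H2-Eb1).
H2-K1: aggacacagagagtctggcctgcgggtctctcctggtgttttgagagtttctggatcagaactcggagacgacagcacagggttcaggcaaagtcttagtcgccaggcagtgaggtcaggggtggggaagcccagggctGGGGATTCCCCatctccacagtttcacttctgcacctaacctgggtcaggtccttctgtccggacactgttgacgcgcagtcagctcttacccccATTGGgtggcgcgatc
B2m: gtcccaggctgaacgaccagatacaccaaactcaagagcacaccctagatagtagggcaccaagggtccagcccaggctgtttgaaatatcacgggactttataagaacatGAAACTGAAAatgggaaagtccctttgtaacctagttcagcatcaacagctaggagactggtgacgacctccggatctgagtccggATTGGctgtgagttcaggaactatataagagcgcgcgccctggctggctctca
Tap1: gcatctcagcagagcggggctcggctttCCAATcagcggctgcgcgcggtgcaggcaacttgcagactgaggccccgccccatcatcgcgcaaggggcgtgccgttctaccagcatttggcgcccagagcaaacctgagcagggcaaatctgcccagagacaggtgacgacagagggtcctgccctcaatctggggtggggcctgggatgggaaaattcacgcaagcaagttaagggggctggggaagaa
H2-Aa: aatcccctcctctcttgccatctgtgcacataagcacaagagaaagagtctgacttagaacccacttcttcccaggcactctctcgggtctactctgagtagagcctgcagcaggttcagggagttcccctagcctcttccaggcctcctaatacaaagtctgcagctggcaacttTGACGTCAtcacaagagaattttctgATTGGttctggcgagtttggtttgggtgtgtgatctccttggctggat
H2-Eb1: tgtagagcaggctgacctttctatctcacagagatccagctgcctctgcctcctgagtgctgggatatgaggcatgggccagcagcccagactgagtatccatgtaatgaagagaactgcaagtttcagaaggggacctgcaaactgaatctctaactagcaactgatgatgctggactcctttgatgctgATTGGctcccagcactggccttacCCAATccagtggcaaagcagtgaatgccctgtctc

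H2-K1 held the palindromic kappa B site 111 to 101 bases before its start. This run of 11 letters was found in 10 of 32851 promoter windows of this length (0.0304%). The motifs were chosen after the sequences had been read, so such shares are no test of the matches. B2m held an ISRE 139 to 130 bases before its start, found in 2.98% of windows. Only exact matches to the patterns were counted, so a window without a marked motif may still hold a near match. H2-Aa held a CRE 74 to 67 bases and a Y box 48 to 44 bases before its start, and the CRE was found in 1.55% of windows. The Y box was also in H2-Eb1, 59 to 55 bases before the start with a second copy on the other strand. It was not particular to class II, as 33.8% of all windows held it, among them those of H2-K1, B2m, Tap1 and Psmb9. Tap1 and Psmb9 start 226 bases apart on opposite strands, so the Tap1 window runs across the Psmb9 start and their Y box is the same copy. In the Psmb8 window only a GAS matched, 97 to 89 bases before the start, as in 7.02% of windows. No overlap between motifs occurred in these windows, and a match is a description of letters.

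Markers of another tissue were high in some arrays. Prl, the prolactin gene of pituitary, was 11.44 in the pool of stressed ovaries and 10.82 in the pool of control ovaries, against 3.63 to 5.09 in single ovaries, and ran from 5.53 to 9.26 over the hypothalamus arrays. Cyp11a1, a steroidogenic gene of ovary, was 11.34 in the stressed pituitary pool and 10.52 in the stressed hypothalamus pool, against 4.54 and 5.77 in the control pools. Ovary markers had a median pool difference of 1.16 in pituitary and 0.95 in hypothalamus. The 5 class I genes had pool stress differences in those tissues of -0.50 to 0.44, and the part of these markers in them was not tested. Without the pool arrays, 8 of 8 genes passed in each comparison with hypothalamus, 5 of 8 between ovary and pituitary (4 with the pools), and 0 of 8 for stress in each tissue. The defining markers of each labelled tissue were higher there, 9 of 9 for ovary, 7 of 7 for pituitary and 7 of 7 for hypothalamus, and array medians over all genes ran from 5.5 to 5.69.

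All 8 genes were higher in ovary than in hypothalamus and higher in pituitary than in hypothalamus. Of the 5 class I genes, 4 were higher in ovary than in pituitary, whereas 0 of the 3 class II genes passed that test and all 3 had lower means in ovary. The difference between class I and class II as groups was not tested. The class II differences from hypothalamus reached 7.68-fold, for H2-Ab1 in pituitary, and the largest class I difference from hypothalamus was 5.41-fold, for Psmb8 in ovary. In single mice these log2 differences ran from 2.91 to 3.53 for H2-Ab1 and from 2.66 to 3.07 for Psmb8. Sizes were not tested between genes. The signals are log2 values, so a difference of 1 is a doubling.

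The class I heavy chain gene H2-K1 averaged 8.62 ± 0.12 in ovary, 8.01 ± 0.26 in pituitary and 6.63 ± 0.52 in hypothalamus (SD, n = 6 arrays each). Its ranges did not overlap between any of the 3 tissues. The share of all genes separated between tissues was not counted, for this gene or for those below. The light chain gene B2m averaged 12.41 ± 0.23 in ovary, 12.14 ± 0.10 in pituitary and 10.82 ± 0.32 in hypothalamus, and its ovary and pituitary values overlapped. Tap1, which encodes a subunit of the peptide transporter, averaged 8.45 ± 0.39, 7.43 ± 0.73 and 6.14 ± 0.33 in ovary, pituitary and hypothalamus.

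The immunoproteasome subunit genes followed the same order. Psmb8 averaged 8.33 ± 0.87 in ovary, 7.29 ± 0.58 in pituitary and 5.90 ± 0.29 in hypothalamus. Psmb9 averaged 6.51 ± 0.32, 6.05 ± 0.14 and 5.20 ± 0.31 in ovary, pituitary and hypothalamus. Psmb8 was spread by the pools: both ovary pools (7.23 in stress and 7.28 in control) lay below all 4 single mice (8.65 to 9.33), and both pituitary pools (6.63 and 6.64) lay below 7.13 to 7.90. Among single mice alone, H2-K1, Psmb8 and Psmb9 showed no overlap between any tissues, and neither did the class II gene H2-Aa. Tap1 overlapped between ovary and pituitary and between pituitary and hypothalamus, over all 6 arrays and in single mice. Across all genes, both pools lay below all 4 single mice in all 3 tissues for 4.19%, and 0 of the 8 genes did.

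Among the class II genes, H2-Ab1, which encodes the beta chain of I-A, averaged 8.72 ± 0.18 in ovary, 8.90 ± 0.34 in pituitary and 5.96 ± 0.37 in hypothalamus (SD, n = 6 each). H2-Aa, the alpha chain gene of I-A, averaged 6.21 ± 0.18, 6.64 ± 0.43 and 4.09 ± 0.36 in ovary, pituitary and hypothalamus. Its hypothalamus signals all lay below the array medians over all genes (5.5 to 5.69). H2-Eb1, the beta chain gene of I-E, averaged 7.37 ± 0.19, 7.78 ± 0.26 and 6.30 ± 0.52. For all 3, hypothalamus lay below the other tissues without overlap, and ovary and pituitary overlapped over all 6 arrays. Among single mice alone, H2-Aa in ovary lay below pituitary without overlap. How common such separation is among all genes was not counted.

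**Figure D1:**
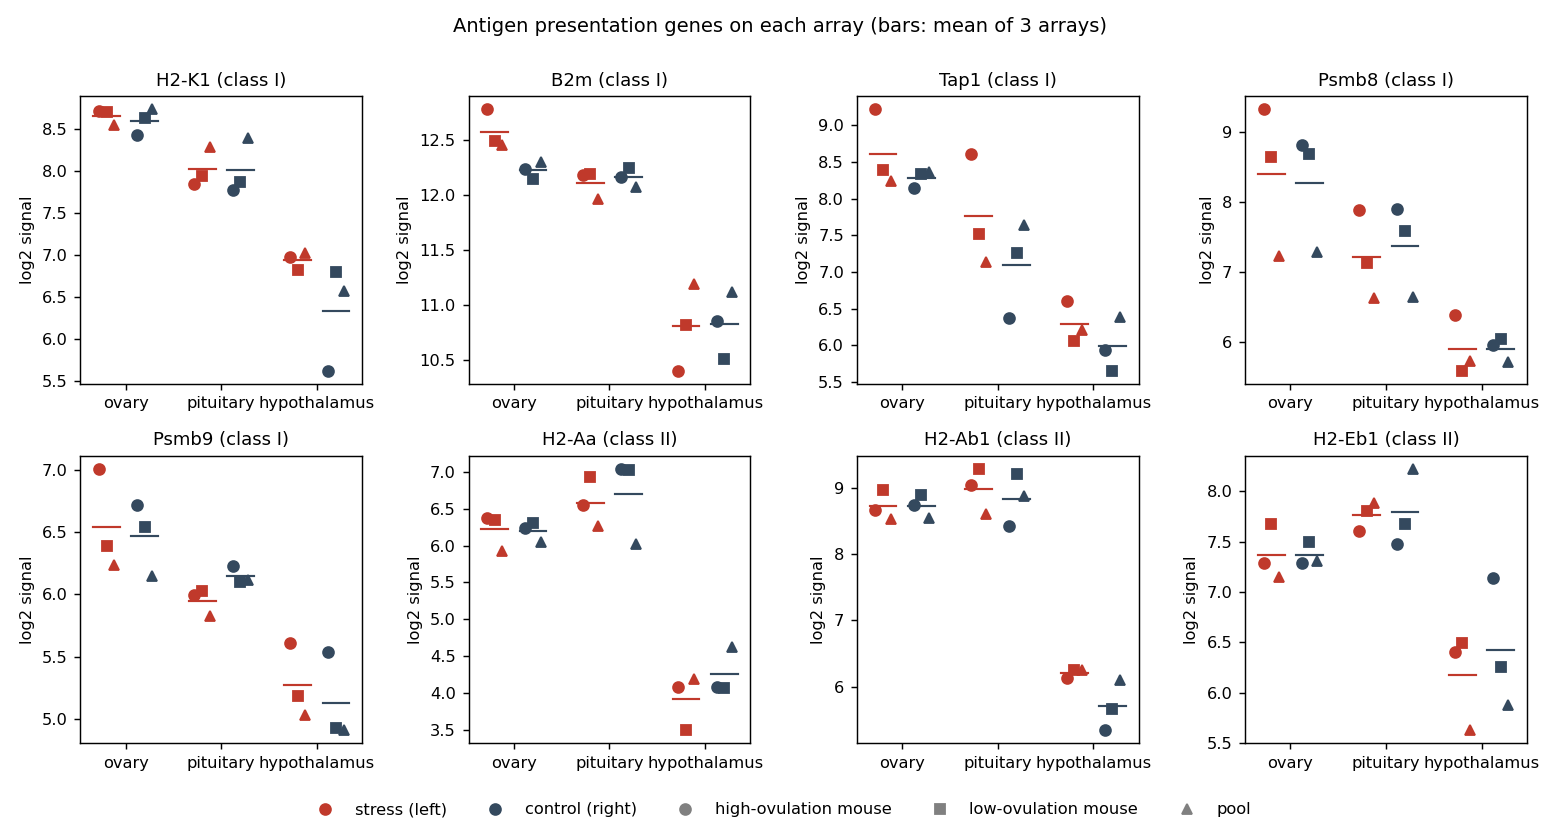
Log2 signal of the 8 genes on each of 18 arrays, by tissue, with stress (red) left of control (dark) and a bar at the mean of 3 arrays; circles are high-ovulation mice, squares low-ovulation mice and triangles pools. The axes differ between genes. Hypothalamus holds the lowest mean of every gene, and Tap1 of the stressed high-ovulation mouse is the top point in every tissue.

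In limma on all 18 arrays with the animal or pool as a block, the ovary minus hypothalamus difference passed for 5 of 5 class I and 3 of 3 class II genes, all higher, against 27% of all genes higher and 22.3% lower. It ran from 1.30 (Psmb9, SE 0.12, adjusted p = 6.03e-08) to 2.44 (Psmb8) in class I, and from 1.07 (H2-Eb1, SE 0.20, adjusted p = 0.00015) to 2.76 (H2-Ab1, SE 0.15, adjusted p = 3.2e-11) in class II. Each of the 8 genes was higher in ovary in 6 of 6 animals or pools.

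The pituitary minus hypothalamus difference also passed for all 8, higher, against 21.5% of all genes higher and 20.8% lower. H2-Ab1 differed by 2.94 (SE 0.15, adjusted p = 5.94e-11) and H2-Aa by 2.54 (SE 0.19), while the 5 class I genes differed by 0.85 (Psmb9) to 1.40 (Psmb8). H2-Eb1, at 1.48, lay just above that class I range. Again 6 of 6 animals or pools showed the direction for each gene. Under limma, ovary exceeded pituitary for Psmb8 by 1.04 (SE 0.19, adjusted p = 0.000172), for Tap1 by 1.02 (adjusted p = 4.77e-05), for H2-K1 by 0.61 (adjusted p = 0.00402) and for Psmb9 by 0.46 (adjusted p = 0.00551), in 6 of 6 animals or pools each.

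B2m differed between ovary and pituitary by 0.27 with an adjusted p of 0.165 in limma, and was higher in ovary in 5 of 6. The background was 23.2% of all genes higher and 20.3% lower in ovary than in pituitary. H2-Aa was at -0.43 (adjusted p = 0.085), H2-Eb1 at -0.41 (adjusted p = 0.103) and H2-Ab1 at -0.18 (adjusted p = 0.353), all from limma, with ovary above pituitary in 1, 0 and 1 of 6 animals or pools. H2-Aa passed without the pool arrays (-0.56, adjusted p = 0.0187 in limma), without the control pituitary pool (adjusted p = 0.0153) and without the control hypothalamus pool (adjusted p = 0.0405). H2-Eb1 passed after quantile normalization (-0.54, adjusted p = 0.0269 in limma) and without the control high mouse's pituitary (adjusted p = 0.0325) or hypothalamus (adjusted p = 0.0374).

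**Figure D2:**
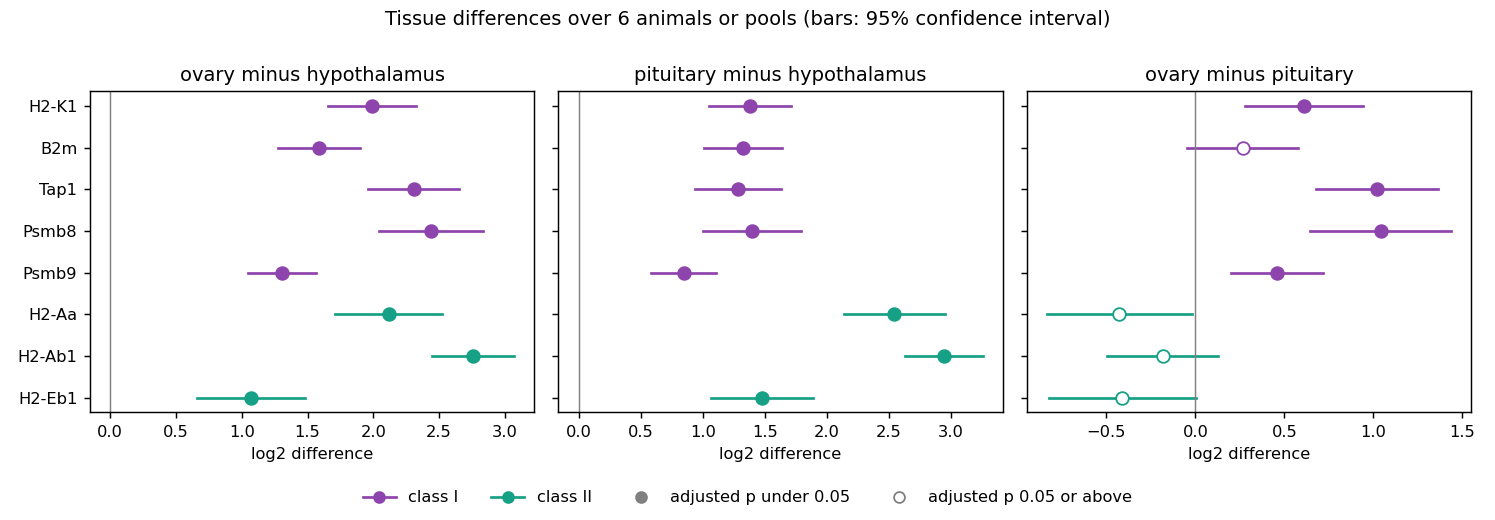
Log2 tissue differences of the 8 genes with 95% confidence intervals from limma on 18 arrays, class I in purple and class II in green, filled where the adjusted p was under 0.05. All points lie right of 0 in both comparisons with hypothalamus; against pituitary, the class I points lie right of 0 and the class II points left of it.

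Of 16 other class I pathway genes measured, 12 were higher and 0 lower in ovary than in hypothalamus (27% and 22.3% of all genes). In pituitary against hypothalamus, 11 were higher and 1 lower (21.5% and 20.8% of all genes). Between ovary and pituitary, 6 were higher and 4 lower in ovary (23.2% and 20.3% of all genes). Tap2, the partner of Tap1, was higher in ovary than in hypothalamus by 2.07, and Tapbp (tapasin, which loads peptide onto class I) by 1.34 in its brighter cluster. A dimmer cluster of Tapbp averaged 6.36 in ovary and 6.21 in hypothalamus. The class Ib gene H2-T23 was higher in ovary by 2.30 against hypothalamus and by 0.74 against pituitary. Psmb10, the third inducible proteasome subunit, exceeded pituitary by 0.80, while Tapbpl (TAPBPR, a peptide editor) was lower in ovary by -0.70. Of the constitutive proteasome subunits, 6 of 13 were higher and 0 lower in ovary than in hypothalamus (27% and 22.3% of all genes). Their median difference was 0.27 over the 13, beside 0.03 for all genes. In ovary against pituitary 4 were higher and 0 lower, and in pituitary against hypothalamus 2 and 0.

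Of 13 other class II pathway genes, 5 were higher and 1 lower in ovary than in hypothalamus (27% and 22.3% of all genes). In pituitary against hypothalamus, 2 were higher and 3 lower (21.5% and 20.8% of all genes). In ovary against pituitary, 3 were higher and 1 lower (23.2% and 20.3% of all genes). Whether these counts depart from the shares over all genes was not tested. The thiol reductase gene Ifi30 (GILT) was higher by 2.65 in ovary and by 2.43 in pituitary, each against hypothalamus. The cathepsin gene Ctsl, whose product trims the invariant chain in thymus, was higher by 1.81 and 1.18 in the same comparisons. Marchf1, a ubiquitin ligase that removes class II from the surface, was lower by -1.54 and -1.57. H2-DMa, part of the class II peptide exchanger, was lower in ovary than in pituitary by -0.34, a call lost without the pools (adjusted p = 0.106 in limma), without the control high ovary (0.0635) or the stressed ovary pool (0.0689), with median centring (0.0577) and without the animal block (0.208). The class II transactivator Ciita did not pass in any of the 3 tissue comparisons (0.15 for ovary minus hypothalamus, 0.06 for ovary minus pituitary and 0.09 for pituitary minus hypothalamus), while the class I regulator Nlrc5 was higher in ovary by 0.87 against hypothalamus and by 0.64 against pituitary. Between pituitary and hypothalamus Nlrc5 differed by 0.23 and did not pass (adjusted p = 0.198 in limma).

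Markers of the cells known to carry class II were read beside these genes. Of 12 macrophage and microglia markers, 8 were higher and 2 lower in ovary than in hypothalamus (27% and 22.3% of all genes). In ovary against pituitary, 11 were higher and 0 lower (23.2% and 20.3% of all genes). In pituitary against hypothalamus, 4 were higher and 4 lower (21.5% and 20.8% of all genes). The mean log2 signal of that list ran from 7.15 to 7.46 in ovary, 6.37 to 6.57 in pituitary and 6.44 to 6.65 in hypothalamus. Between pituitary and hypothalamus the markers went both ways: Csf1r, the macrophage growth factor receptor gene, was at -1.21 and P2ry12, a microglia receptor gene, at -1.30, while Adgre1, which encodes a surface antigen of macrophages, was at 0.72, and all 3 passed. Of 7 dendritic cell markers, 0 were higher and 1 lower in pituitary than in hypothalamus. In ovary 3 were higher and 1 lower against hypothalamus, and 2 and 1 against pituitary. Of 4 B cell markers, 1 was higher (Cd79b, by 1.22) and 0 lower in pituitary than in hypothalamus. In ovary 0 were higher and 0 lower against hypothalamus, and 0 and 1 against pituitary. Of 7 endothelial markers, 6 were higher and 0 lower in ovary than in hypothalamus. In ovary against pituitary 7 were higher and 0 lower, and in pituitary against hypothalamus 5 and 2. The shares of all genes are those given above for each comparison. The part of these markers in the tissue differences was not tested.

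No stress difference of the 8 genes passed the test. In limma on the 6 arrays of a tissue, 0 of 8 passed in ovary, in pituitary or in hypothalamus, and so did 0% of all 22180 genes in each. These fits, and the stress SEs and intervals below, left the ovulation class out. At an unadjusted p under 0.05, 0 of the 8 genes passed in any tissue, against 592, 294 and 245 genes in ovary, pituitary and hypothalamus. With the ovulation class as a block, 0 of 8 also passed the adjusted test in each tissue. That block lowered the median SE over all genes from 0.27 to 0.19 in pituitary and from 0.23 to 0.15 in hypothalamus. At an unadjusted p under 0.05 in limma it gave 446 higher and 664 lower genes in pituitary, and 400 and 523 in hypothalamus. Differences of the stress effect between tissues, tested as interactions in limma, passed for 0 of 8 genes in each of 3 pairs of tissues, and 0 of the 8 had an unadjusted p under 0.05. Of all genes 0 passed these interactions.

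In ovary, B2m was 12.78, 12.49 and 12.46 in stressed mice (high, low and pool), against 12.24, 12.15 and 12.30 in control mice. Each stressed sample lay above each control sample, a pattern that 4.71% of all genes showed in this direction and 4.07% in the other. The difference was 0.35 (SE 0.17, 95% interval -0.05 to 0.74, adjusted p = 0.999 in limma), with 0.54, 0.34 and 0.16 in high mice, low mice and pools. No other member was separated in ovary. H2-K1 was 8.71, 8.70 and 8.55 in stressed ovaries, against 8.42, 8.62 and 8.73 in control ovaries, and the groups overlapped.

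Tap1 was 9.22, 8.39 and 8.24 in stressed ovaries (high, low and pool), against 8.14, 8.33 and 8.36 in control ovaries. In pituitary it was 8.61, 7.52 and 7.14 under stress, against 6.38, 7.27 and 7.64 in control. In hypothalamus it was 6.60, 6.06 and 6.21 under stress, against 5.94, 5.65 and 6.38 in control. The groups overlapped in every tissue, but the stressed high-ovulation mouse was the highest of 6 samples in all 3, and its control counterpart the lowest in ovary and pituitary. The high-mouse difference was 1.07, 2.23 and 0.66 in ovary, pituitary and hypothalamus, the low-mouse difference 0.06, 0.25 and 0.41, and the pool difference -0.13, -0.50 and -0.17. The mean difference of 0.34 in ovary (adjusted p = 0.999 in limma) was 0.04 without the stressed high mouse, that of 0.66 in pituitary was 0.24 (and 0.30 without the control high mouse), and that of 0.30 in hypothalamus was 0.15.

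The immunoproteasome genes had their highest ovary value in the same mouse. Psmb8 was 9.33, 8.65 and 7.23 in stressed ovaries, against 8.82, 8.70 and 7.28 in control ovaries, with the pools low in both groups. Psmb9 was 7.01, 6.39 and 6.23 in stressed ovaries, against 6.72, 6.54 and 6.15 in control ovaries. The groups overlapped for both genes. In pituitary, Psmb9 was 6.00, 6.02 and 5.82 under stress, against 6.23, 6.10 and 6.11 in control. There each stressed sample lay below each control sample, as for 3.68% of all genes, with 2.4% separated upwards, and the difference was -0.20 (SE 0.20, adjusted p = 1 in limma). Psmb8 in pituitary was 7.89, 7.13 and 6.63 under stress, against 7.90, 7.58 and 6.64 in control.

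In pituitary, H2-K1 was 7.84, 7.93 and 8.28 under stress, against 7.77, 7.87 and 8.39 in control. B2m was 12.19, 12.20 and 11.97 under stress, against 12.16, 12.25 and 12.08 in control. The differences by ovulation class ran from -0.11 to 0.08 for H2-K1 and from -0.11 to 0.02 for B2m. The 95% intervals of the mean differences were -0.57 to 0.59 for H2-K1 and -0.51 to 0.42 for B2m.

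In hypothalamus, H2-K1 was 6.97, 6.82 and 7.01 under stress, against 5.62, 6.80 and 6.57 in control. H2-Ab1 was 6.14, 6.25 and 6.25 under stress, against 5.35, 5.67 and 6.11 in control. Both genes were separated upwards, as were 1.94% of all genes, with 2.6% separated downwards. The differences were 0.61 for H2-K1 (SE 0.30, adjusted p = 1 in limma) and 0.51 for H2-Ab1 (SE 0.23, adjusted p = 1 in limma). Without the control high mouse, which held the lowest value of both, they were 0.25 and 0.33. B2m in hypothalamus was 10.40, 10.82 and 11.19 under stress, against 10.85, 10.51 and 11.12 in control and its groups overlapped, with a difference of -0.02 (SE 0.26).

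Psmb8 and Psmb9 overlapped between the groups in hypothalamus, with the highest value of each in the stressed high mouse. Psmb8 was 6.39, 5.58 and 5.73 under stress, against 5.95, 6.04 and 5.71 in control. Psmb9 was 5.61, 5.19 and 5.03 under stress, against 5.54, 4.93 and 4.91 in control. Psmb9 was higher under stress in each ovulation class, by 0.07 to 0.26.

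The class II genes overlapped between the groups in ovary. H2-Ab1 was 8.66, 8.96 and 8.53 in stressed ovaries, against 8.74, 8.88 and 8.53 in control ovaries. H2-Aa was 6.38, 6.35 and 5.92 in stressed ovaries, against 6.24, 6.31 and 6.05 in control ovaries. H2-Eb1 was 7.29, 7.67 and 7.15 in stressed ovaries, against 7.29, 7.50 and 7.30 in control ovaries. The mean differences of H2-Ab1, H2-Aa and H2-Eb1 were -0.002, 0.02 and 0.01, with 95% intervals of -0.44 to 0.43, -0.42 to 0.46 and -0.44 to 0.45.

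In pituitary, H2-Ab1 was 9.04, 9.28 and 8.60 under stress, against 8.42, 9.20 and 8.87 in control. H2-Aa was 6.54, 6.93 and 6.26 under stress, against 7.04, 7.02 and 6.02 in control. H2-Eb1 was 7.60, 7.80 and 7.89 under stress, against 7.48, 7.67 and 8.22 in control. The high mice differed in opposite directions for the paired chains of I-A, by 0.62 for H2-Ab1 and by -0.49 for H2-Aa, and the groups overlapped for all 3 genes.

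In hypothalamus, H2-Aa was 4.08, 3.50 and 4.20 under stress, against 4.08, 4.07 and 4.62 in control. These are low signals, below the array medians over all genes of 5.5 to 5.69. H2-Eb1 was 6.41, 6.49 and 5.63 under stress, against 7.13, 6.25 and 5.88 in control. Both mean differences were negative (-0.33 and -0.25) where that of H2-Ab1 was positive, and none of the 3 passed. The difference of H2-Eb1 was 0.11 without the control high mouse and 0.03 without the stressed pool. That of H2-Aa was -0.11 without the stressed low mouse and -0.15 without the control pool. Markers of macrophages and microglia had a median difference of 0.01 in hypothalamus, -0.05 in pituitary and -0.01 in ovary.

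**Figure D3:**
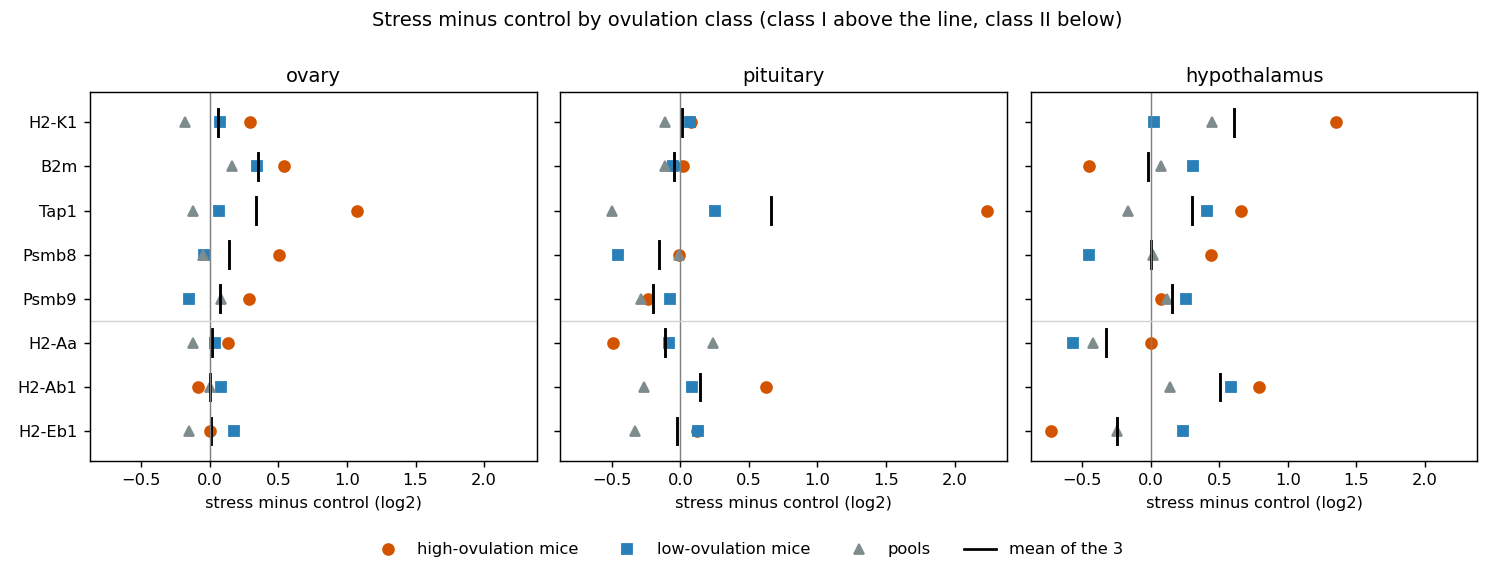
Stress minus control in log2 units for each gene, by tissue and ovulation class (circles high, squares low, triangles pools), with a black bar at the mean of the 3. Tap1 of the high mice stands farthest to the right in ovary (1.07) and pituitary (2.23), and class II genes in ovary lie close to 0.

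By class, the 5 class I genes were higher under stress in 5, 2 and 4 cases in ovary, pituitary and hypothalamus, with medians of 0.14, -0.05 and 0.15. The ovary count of 5 was 3 without the stressed high mouse, where Psmb8 (-0.33) and Psmb9 (-0.16) turned negative, and also 3 without the control pool. With 1 array left out, the class I counts ran from 3 to 5 in ovary, 1 to 3 in pituitary and 3 to 4 in hypothalamus. The 3 class II genes were higher in 2, 1 and 1 cases, with medians of 0.01, -0.03 and -0.25, and with 1 array left out these counts ran from 0 to 3, 0 to 2 and 1 to 2. The hypothalamus median of class II was 0.11 without the control high mouse and 0.03 without the stressed pool. Over all genes the medians were -0.02, -0.04 and -0.02. In the high mice the class I medians were 0.51, 0.02 and 0.44 in ovary, pituitary and hypothalamus, and the class II medians 0.00, 0.12 and 0.00. In the low mice the class I medians were 0.06, -0.05 and 0.26, and the class II medians 0.08, 0.08 and 0.24. In the pools the class I medians were -0.05, -0.11 and 0.07, and the class II medians -0.12, -0.26 and -0.25.

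The stressed high mouse, a single animal, had the highest of 6 values for 4 of 5 class I genes in ovary, 1 of 5 in pituitary and 3 of 5 in hypothalamus. For class II genes the counts were 1, 0 and 0 of 3. Among all genes it was highest for 14.5%, 12.7% and 19.9% in ovary, pituitary and hypothalamus, and in all 3 tissues for 0.721%. Tap1 was the 1 gene of the 8 that was highest in all 3. Among regulators, Nlrc5 and Irf1 were also highest in all 3: Nlrc5 was 6.77, 6.02 and 5.34 in its ovary, pituitary and hypothalamus, against at most 5.58, 4.98 and 4.99 in the other samples. Ciita was highest in its pituitary (5.91).

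Genes known to be induced by interferons were read in the same animal. Of 12 interferon gamma induced genes (guanylate-binding proteins, immunity-related GTPases and chemokines), 11, 10 and 5 had their highest value there in ovary, pituitary and hypothalamus, and of 12 genes induced by type I interferon, 12, 11 and 8 did. The shares of all genes were 14.5%, 12.7% and 19.9%. With 1 animal, stress cannot be told apart from the individual, and the cause was not tested. The median high-mouse difference of the first list was 2.07, 1.53 and 0.41, and of the second 1.71, 1.38 and 0.74. In low mice and pools the medians of both lists ran from -0.22 to 0.31. In ovary, 10 of 12 genes of the first list were higher under stress in low mice and 11 in pools. Of the second list 3 and 3 were, and of all 22180 genes 11210 and 10710. Pituitary counts were 2 and 5 for the first list, and 4 and 5 for the second. Hypothalamus counts were 7 and 5, and 8 and 4. In ovary, 3 genes of the first list and 1 of the second were separated upwards. Gbp4, a guanylate-binding protein gene, was 8.34, 5.98 and 6.26 in stressed ovaries, against 4.49, 5.47 and 5.06 in control ovaries. It was thus separated upwards there, as were 4.71% of all genes, with 4.07% separated downwards. Its mean difference of 1.86 had an adjusted p of 0.999 in limma and was 1.12 without the stressed high mouse, and 0 of 12 genes of either list passed in any tissue.

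Under stress, of 16 other class I pathway genes, 12, 8 and 10 were higher in ovary, pituitary and hypothalamus (medians 0.15, -0.002 and 0.08), and 0 passed. Of 13 other class II pathway genes, 8, 4 and 9 were higher (medians 0.07, -0.08 and 0.08), and 0 passed. The class Ib gene H2-T24 differed by 0.99, 1.34 and 0.56 in the high mice of ovary, pituitary and hypothalamus, by -0.26, 0.38 and 0.07 in the low mice and by -0.22, -0.14 and 0.02 in the pools. All 13 constitutive proteasome subunits had lower means in stressed pituitary, with a median of -0.19 that was -0.64 in high mice, 0.00 in low mice and 0.10 in pools. Of the 13, 0 passed and 0 were separated downwards. Over all genes, 12499 of 22180 had lower means there, with a median of -0.04. Ciita was 5.49, 5.58 and 5.48 in stressed hypothalamus, against 5.03, 5.20 and 5.11 in control, a difference of 0.41 with an adjusted p of 1 in limma. It was separated upwards, as were 1.94% of all genes, with 2.6% separated downwards. Leaving out 1 array at a time gave 0.36 to 0.45.

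**Figure D4:**
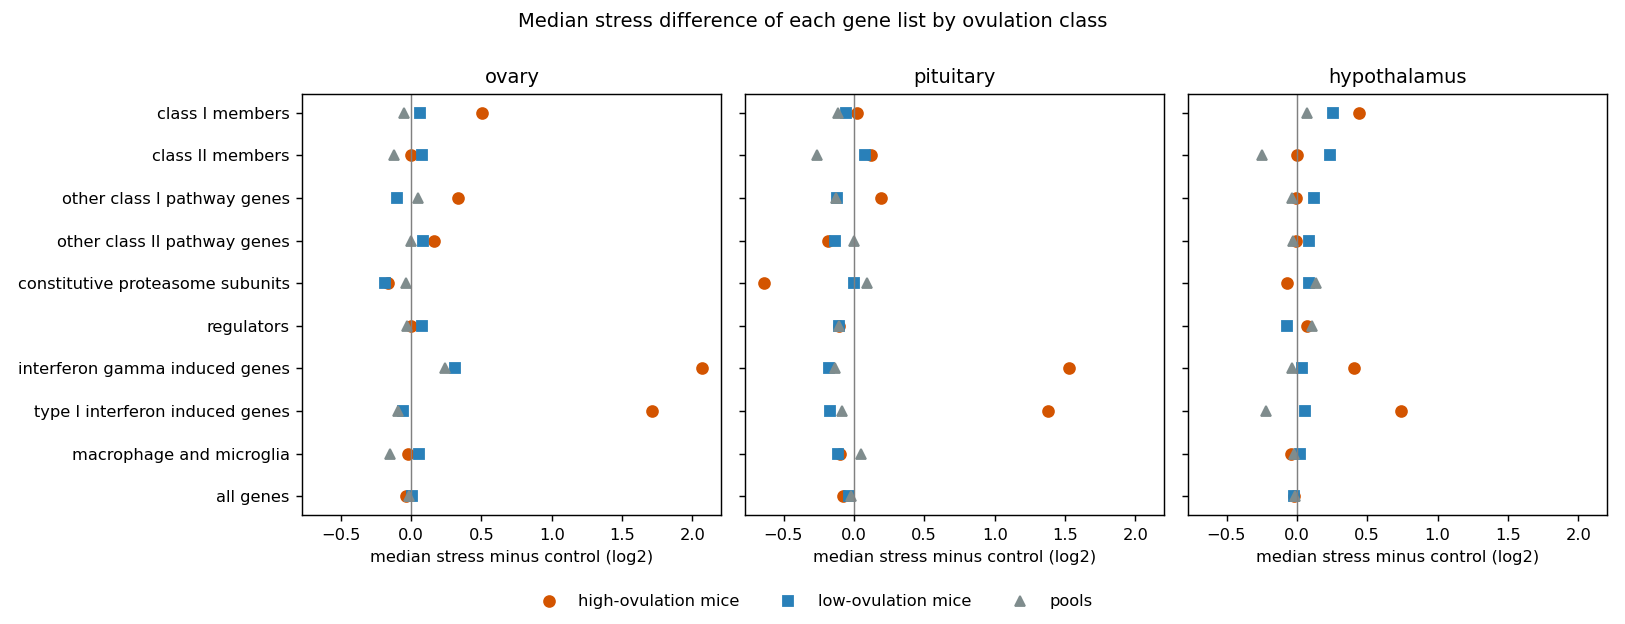
Median stress minus control (log2) of the class I and class II genes, of the wider lists and of all 22180 genes, by tissue and ovulation class. The interferon lists of the high mice lie at 2.07 and 1.71 in ovary and 1.53 and 1.38 in pituitary, apart from the other lists.

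The high-ovulation and low-ovulation mice were compared in a model with treatment. The test passed for 0 of 8 genes in each tissue, and for 0 of 22180 genes (limma), with 1208, 703 and 1831 genes higher and 1174, 457 and 2444 lower in high mice at an unadjusted p under 0.05 in ovary, pituitary and hypothalamus. At an unadjusted p under 0.05, Psmb9 in hypothalamus and Psmb8 in pituitary were higher in high mice, by 0.52 and 0.54 (adjusted p = 0.179 and 0.9 in limma), and these 2 are named after their values were seen.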

How the data were processed

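Biotin labelling of 18 samples started from 6 ug of RNA, per the labels' protocols. The authors deposited log2 signals, with 1 value per transcript cluster and array, made with Transcriptome Analysis Console, per the submitters' processing notes. Its version and normalization are not given in the sources used here, and the log base was read from the range of values. Of 41345 clusters, 23521 name 1 gene, 1814 several and 16010 none. Where a gene had several clusters (1082 genes), the 1 with the highest mean was used, giving 22180 genes. No filter on low values was applied, and depth is not defined for arrays: their number limits the precision.

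Stress was tested in each tissue on 6 arrays, tissues and interactions on 18 arrays with the animal or pool as a fixed block, and high against low ovulation with treatment in the model (limma 3.58.1, R 4.3.3, Benjamini-Hochberg over all genes, threshold 0.05, two-sided). The steps were tested on simulated data. The members and lists were chosen with earlier results of these data known, and the promoter motifs after the sequences had been read. The text names all measured members, up to 4 genes of a list with the smallest unadjusted p per comparison, and always Ciita, Nlrc5 and Irf1. Prl, Gh and Cyp11a1 stand for carry-over between tissues. H2-T24 and the second clusters of Tapbp and H2-Q10 were singled out after their values were seen. Ovulation classes were checked for pairing from each array's deviation from its group mean: 9 same-class correlations ran from 0.36 to 0.73 and 18 different-class ones from -0.52 to 0.32. Same-class samples of a tissue are different mice or pools. Whether arrays were run in batches is not given in the sources used here. Promoters came from RefSeq (GRCm38.p6). Figures were drawn with matplotlib 3.10.9.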

Additional observations from a re-analysis of the deposited data

Results flagged for a closer look

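Of 24 sets of 6 arrays (8 genes in 3 tissues), 2 had a sample far from the others by Dixon's gap test, which chance alone flags in about 1 set in 20. Tap1 in ovary was 9.22 in the stressed high mouse, and the other 5 samples lay between 8.14 and 8.39. H2-K1 in hypothalamus was 5.62 in the control high mouse, and the other 5 lay between 6.57 and 7.01. Without that control sample the stress difference of H2-K1 was 0.25, against 0.61 with it.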

How the results depend on the processing

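Leaving out arrays, leaving out the pools where this could be fitted, quantile normalization, median centring, array weights (for stress), the mean of a gene's clusters and a filter at the median level left the number of members passing at 0 for stress, for the interactions and for high against low ovulation in every tissue. With the replicate block on ovulation class, 0 members passed for stress, and it changed no other call. In the tissue tests the number passing stayed at 8 of 8 against hypothalamus, or 7 of 7 where the filter removed H2-Aa, and at 4 or 5 of 8 for ovary against pituitary. Without the animal block (no replicate block) the number stayed at 4. Between ovary and pituitary, Ctsl, Irgm2, Psmb5 and H2-DMa lost their calls without the block, and between pituitary and hypothalamus Psmb2 did. Median centring moved the median of all genes to 0.11 for ovary minus hypothalamus, from 0.03. For high against low ovulation in hypothalamus, the filter at the median level gave 274 higher and 864 lower genes, and leaving out 1 array gave up to 27 in ovary, with 0 members.

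Stress differences changed sign under some alternative in 16 of 24 member differences, and the cause was not tested. Not all of them were near 0. That of H2-Eb1 in hypothalamus was -0.25 in the main fit and 0.11 without the control high mouse. With array weights the values were 0.0387 (B2m) and -0.054 (Psmb8) in hypothalamus, 0.0646 (H2-Eb1) and -0.21 (Ciita) in pituitary and 0.0093 (H2-Ab1) in ovary. Quantile normalization gave 0.0079 (B2m, hypothalamus) and 0.0284 (H2-Eb1, pituitary), median centring -0.005 (H2-Eb1, ovary), and leaving out the pools -0.0057 (Psmb8, hypothalamus) and 0.13 (H2-Eb1, pituitary).

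Leaving out 1 array at a time gave these ranges. In ovary they were -0.0638 to 0.16 (H2-Aa), -0.12 to 0.0905 (H2-Ab1), -0.14 to 0.12 (H2-Eb1), -0.0237 to 0.13 (H2-K1), -0.36 to 0.72 (Psmb8), -0.16 to 0.23 (Psmb9), -0.0361 to 0.27 (Irf1) and -0.19 to 0.57 (Nlrc5). In pituitary they were -0.0916 to 0.0274 (B2m), -0.45 to 0.0589 (H2-Aa), -0.0566 to 0.33 (H2-Ab1), -0.18 to 0.19 (H2-Eb1), -0.12 to 0.20 (H2-K1), -0.52 to 0.14 (Psmb8), -0.10 to 0.29 (Ciita) and -0.21 to 1.37 (Gbp4). In hypothalamus they were -0.22 to 0.18 (B2m), -0.52 to 0.11 (H2-Eb1), -0.24 to 0.16 (Psmb8), -0.0164 to 0.36 (Psmb9), -0.25 to 0.43 (Irf1) and -0.0011 to 0.47 (Nlrc5). The ovary minus pituitary difference of Ciita ran from -0.0351 to 0.14. The class medians ran from 0.03 to 0.41, -0.09 to 0.03 and 0.07 to 0.27 in class I and from -0.12 to 0.12, -0.06 to 0.17 and -0.36 to 0.11 in class II, in ovary, pituitary and hypothalamus. With 3 arrays a group, and single animals behind the high and low samples, small stress differences were not detectable.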

Other observations

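The cluster shared by Cd74, the invariant chain of class II, and Mir5107 is given here by its own values. It was 8.93, 9.65 and 8.91 in stressed ovaries, against 8.89, 9.36 and 9.15 in control ovaries. In pituitary it was 9.63, 10.09 and 9.46 under stress, against 8.94, 9.96 and 9.49 in control. In hypothalamus it was 5.98, 5.78 and 6.10 under stress, against 5.68, 6.04 and 6.65 in control, so both other tissues lay above hypothalamus without overlap.

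The cluster shared by H2-Q2 and H2-D1 differed less between tissues. It was 5.98, 5.70 and 5.80 in stressed ovaries, against 5.15, 5.47 and 5.85 in control ovaries. In pituitary it was 5.71, 5.73 and 5.65 under stress, against 5.29, 5.64 and 6.31 in control. In hypothalamus it was 4.89, 4.94 and 5.31 under stress, against 5.10, 4.53 and 5.38 in control. The ranges of hypothalamus and both other tissues overlapped.

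The class Ib gene H2-Q10 had 2 clusters that disagreed. Its brighter cluster averaged 10.43 in ovary, 5.71 in pituitary and 4.57 in hypothalamus, and its dimmer one 4.97, 4.71 and 4.48. In the brighter cluster the stressed pituitary and hypothalamus pools were at 7.32 and 6.95, against 3.80 and 3.85 in the control pools, and Cyp11a1 was high in the same stressed pools.

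The genes whose centred profile over 18 arrays lay nearest the mean profile of the 3 class II genes were Traf3ip2, P4hb, Sgms2, Eef2kmt and Fkbp9, with root mean square differences of 0.23 to 0.26. Nearest to the mean profile of H2-K1 and B2m were Nt5dc1, Tmem106a, Gm10499, Ano6 and Edem2 (0.19 to 0.23). The 18 points of each profile fall into 3 tissues.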
